A study of Homo sapiens with 4 samples.

Results

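The mitosis and spindle genes are 56 named human genes of entry into mitosis, spindle assembly, chromosome segregation and cytokinesis. They were found by symbol among the 20263 genes of the deposited count table, and all 56 were present and had enough counts to be tested. HCT116, an established human colon cancer line, was grown in serum-containing medium (10%) and treated with N_12 for 24 h, or given DMSO alone. Libraries were made with an mRNA kit from 1.4 ug of total RNA each, 2 per group. The growth protocol and design text call the controls untreated, while their titles and treatment tags read DMSO. The series title calls N_12 a derivative of nilotinib, a kinase inhibitor, and names proliferation and migration of colon cancer cells. The labels give no dose, and under treatment the N_12 samples are tagged HJJ_3_5, another code. They do not say whether replicates were separate cultures, so p-values measure only the spread between these libraries, which may be technical. With bulk RNA, fewer cells in mitosis and less of an mRNA per mitotic cell cannot be told apart.

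Most of these genes are transcribed late in the cell cycle. In quiescent or arrested cells they are held down by the DREAM complex, and in G2 they are switched on by B-MYB with the MuvB core and by FOXM1. Many of their promoters carry a short element called the CHR (cell cycle genes homology region), which the MuvB subunit LIN54 binds, near CCAAT boxes bound by NF-Y. Their proteins then act in sequence: cyclin B with CDK1 drives entry into mitosis, kinesins and microtubule-binding proteins build the spindle, the checkpoint holds anaphase until kinetochores are attached, and the anaphase-promoting complex then triggers separation.

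Promoters of 48 of the 56 genes were found in a RefSeq table (GRCh38.p14), as the 250 bases before and 50 bases after the first start listed for each gene. The genes with no entry were AURKA, BIRC5, BUB3, TTK, UBE2C, TPX2, RACGAP1 and FOXM1. A CHR, searched as TTTGAA or TTTAAA on both strands, lay in 40 of the 48 windows (83.3%) and in 24.3% of all 27305 windows of that length in the table. A CCAAT box, searched on both strands, lay in 36 of 48 (75%) and in 35.7% of all windows. Both were present in 30 of 48 (62.5%) and in 9.49% of all windows. A match is a description of letters and not of binding. Other forms of the CHR and other start sites were not searched, so no match does not mean that a gene lacks a CHR.

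The 5 promoters below share both motifs within the 100 bases before the start. PLK1, PRC1 and CCNB1 had positive log2 fold changes whose single-gene intervals lay above 0, though none passed the edgeR test over all genes reported below. KIF11 and CDC20 had values near 0. The genes were picked by p-value, so their different values come from the choice of promoters. They are written 5′ to 3′ on the strand of the gene, ending at the base before the start, with CHR and CCAAT matches of either strand in capitals (on the opposite strand they read TTCAAA and ATTGG).
PLK1, chr16:23678789-23678888, plus strand: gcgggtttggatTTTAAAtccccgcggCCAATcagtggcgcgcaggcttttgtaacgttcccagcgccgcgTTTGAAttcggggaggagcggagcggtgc
PRC1, chr15:90994536-90994635, minus strand: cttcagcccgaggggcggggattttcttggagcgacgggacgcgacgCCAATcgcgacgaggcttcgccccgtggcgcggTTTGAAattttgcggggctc
CCNB1, chr5:69167050-69167149, plus strand: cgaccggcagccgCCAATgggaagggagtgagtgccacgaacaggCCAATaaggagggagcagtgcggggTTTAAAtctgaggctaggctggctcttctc
KIF11, chr10:92593030-92593129, plus strand: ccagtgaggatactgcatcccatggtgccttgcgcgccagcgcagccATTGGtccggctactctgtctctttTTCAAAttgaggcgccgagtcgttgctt
CDC20, chr1:43358881-43358980, plus strand: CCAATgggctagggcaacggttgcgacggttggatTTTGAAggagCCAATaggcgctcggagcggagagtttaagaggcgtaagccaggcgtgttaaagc
The CHR nearest the start began 29 bases before it in PLK1, 20 in PRC1, 30 in CCNB1, 28 in KIF11 and 65 in CDC20. Among members with a promoter entry, the median log2 fold change was 0.26 for the 40 with a CHR match and 0.02 for the 8 with none. It was 0.20 for the 36 with a CCAAT box and 0.32 for the 12 without. These differences were not tested. The 8 with no match to TTTGAA or TTTAAA in the window were CCNA2, CDC25A, CDC25B, CDC25C, NEK2, AURKB, BUB1 and SPC24. Of these BUB1 alone had over 2500 coding bases, and across members the fold change varied with coding length (Spearman's rho 0.54, described below).

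Total counts were 29769568 to 41717938 per library. The members had at least 333 counts in every library and took 0.503% and 0.584% of counts in DMSO replicates 1 and 2, and 0.651% and 0.623% in N_12 replicates 1 and 2. The epithelial markers EPCAM, CDH1, KRT8, KRT18 and KRT19 were all expressed. Of these 5, 4 were lower in both N_12 libraries than in either DMSO library, against 26.8% of all genes. By edgeR 3 of the 5 were lower at an unadjusted p under 0.05, against 10.8% of all genes, and 0 after adjustment, against 1.43%. The median log2 fold change of these 5 markers was -0.36. Their part in the results below was not tested. PTPRC and CD3E of leukocytes and COL1A2 and DCN of fibroblasts had 0 counts in all 4 libraries, the other leukocyte and endothelial markers had at most 71 counts, PDGFRB at most 14, and COL1A1 had 1788 to 2445. The 13 mitochondrially encoded genes took 6.59% of counts in DMSO replicate 1, 7.73% in DMSO replicate 2, 9.61% in N_12 replicate 1 and 8.23% in N_12 replicate 2.

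The design set treated against DMSO cells to look for the compound's role and mechanism in this cancer. None of the 56 mitosis and spindle genes passed edgeR's quasi-likelihood test at an adjusted p of 0.05 over all tested genes, against 2.25% of all 14105 genes (0.822% higher and 1.43% lower). The smallest adjusted p among them was 0.0590. At an unadjusted p under 0.05 there were 9 members (16.1%), 8 higher and 1 lower in N_12, against 21.8% of all genes. By direction, 14.3% of members were higher, against 11% of all genes, and 1.79% lower, against 10.8%. With the other tools limma-voom called 0 members and DESeq2 called 3, PLK1 and FOXM1 as higher and CKS2 as lower, against 0.929% and 9.29% of all genes.

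Below the threshold the values leaned to the higher side. The median log2 fold change of the members was 0.24, against 0.01 for all tested genes, and 42 of 56 lay above 0 (75%, against 51% of all genes). Both N_12 libraries lay above both DMSO libraries for 23 members (41.1%, against 27.9% of all genes) and below them for 4 (7.14%, against 26.8%), and the groups overlapped for the other 29. The 95% intervals give the range of fold changes these libraries allow for each gene: that of 55 members lay wholly above a 2-fold fall, CENPF being the exception, and that of 48 lay wholly below a 2-fold rise.

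**Figure D1:**
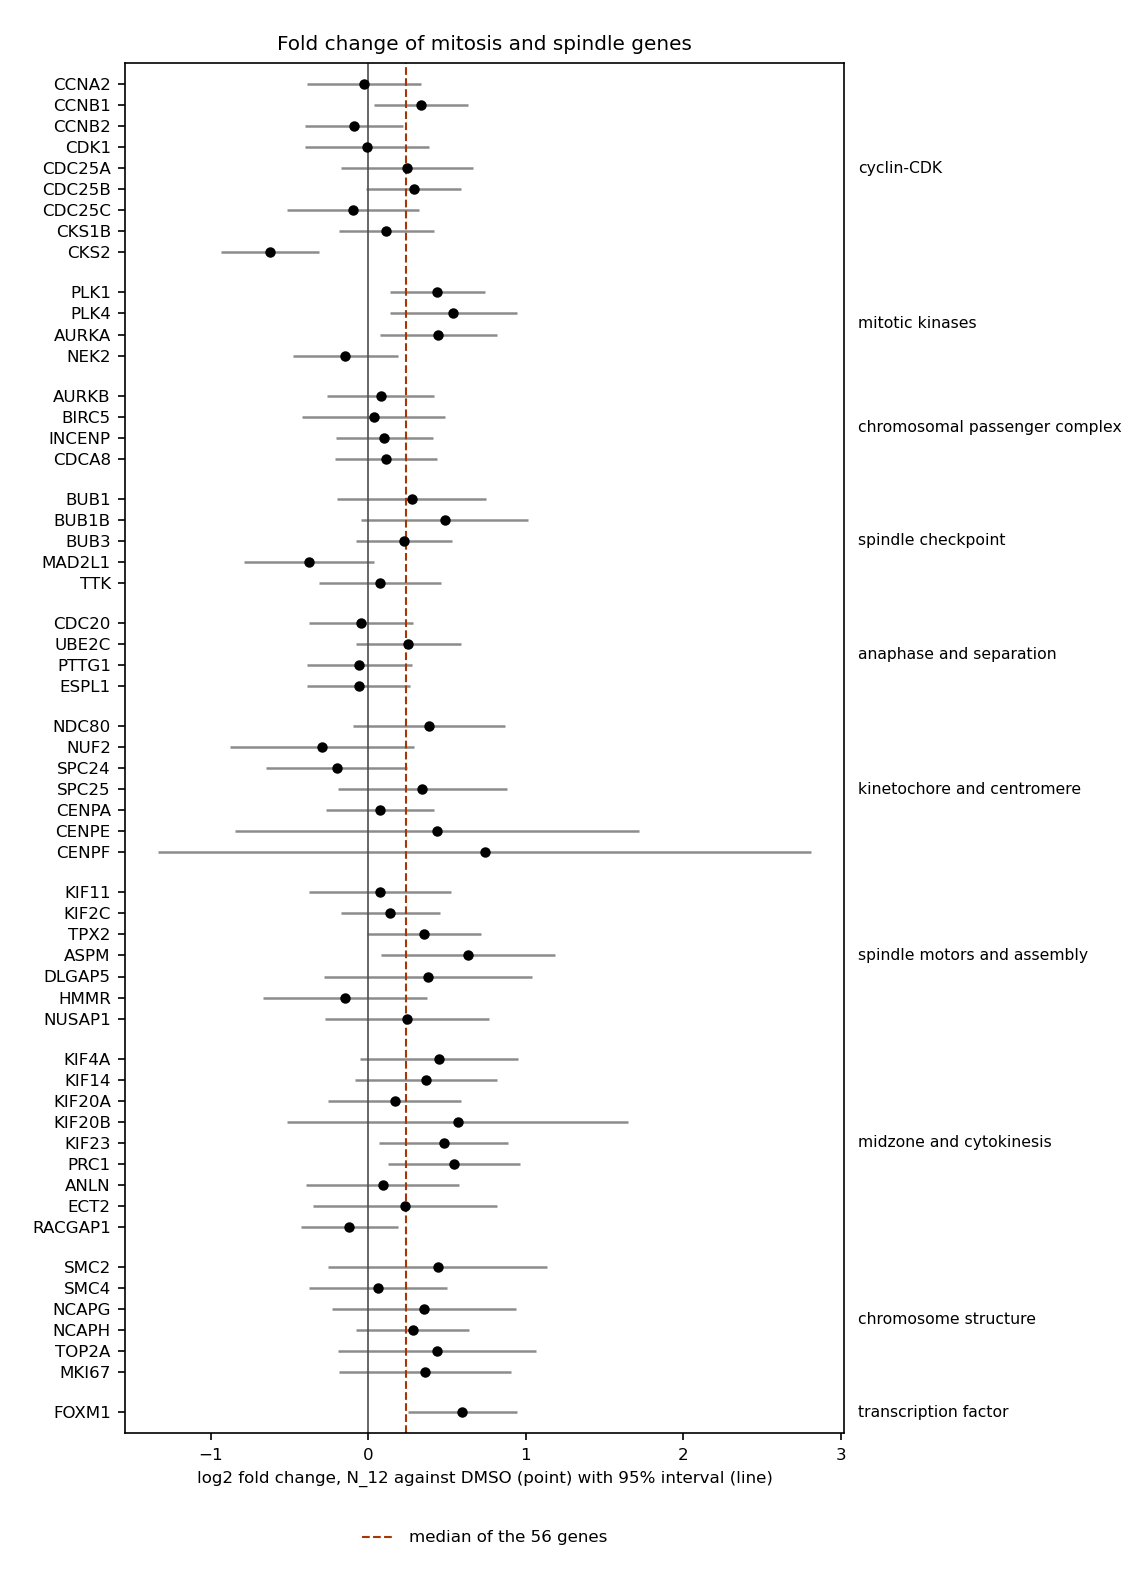
Log2 fold change of each of the 56 genes, N_12 against DMSO (x axis; points, with 95% intervals as lines from edgeR's fit on 2 libraries per group), with genes on the y axis grouped by role. Intervals of 9 genes lie wholly on one side of 0, the widest interval is that of CENPF, and the dashed line marks the median of 0.24.

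Each role is described below with normalised read counts (CPM, a gene's share of its library's counts, after scaling by TMM, edgeR's trimmed-mean factors), given in the order DMSO replicates 1 and 2, then N_12 replicates 1 and 2. Fold changes are log2 values of N_12 against DMSO with the standard error (SE) and the adjusted p of edgeR over all genes.

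The transcription factor FOXM1 (ENSG00000111206), which drives expression of G2 and mitotic genes, stood at 28.5 and 28.1 CPM in DMSO and at 43.1 and 42.7 CPM in N_12. The replicates lay close together and the groups were apart, with a log2 fold change of 0.60 (SE 0.15, 95% interval 0.25 to 0.94, adjusted p = 0.0825). Leaving out any 1 library kept the value between 0.58 and 0.61. FOXM1 was called by DESeq2 (adjusted p = 0.0089) and by edgeR with a correction for GC content and length (0.0381). MYBL2, which encodes B-MYB and is no member, was the only gene of 14 fixed transcriptional regulators of this program (the MuvB core, E2F, pocket protein and NF-Y genes among them) that passed edgeR's test: it went from 51.8 and 47.7 to 82.7 and 85.4 CPM (0.76, SE 0.14, adjusted p = 0.0413). DESeq2 (adjusted p = 0.000122) and the fit with GC content and length correction (0.0275) also called MYBL2. The call was lost with limma-voom (adjusted p = 0.066) and with edgeR's non-robust dispersions (adjusted p = 0.0708). It was also lost without DMSO replicate 1 (0.82) and without DMSO replicate 2 (0.70). Without either N_12 library, where edgeR called no gene of the whole table, the value was 0.73 to 0.76. The MYBL2 result is not independent of the earlier results under which the list was chosen.

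The mitotic kinases differed by gene. PLK1 (ENSG00000166851), the polo-like kinase of mitotic entry and spindle assembly, stood at 125 and 114 CPM in DMSO and at 162 and 162 CPM in N_12 (0.44, SE 0.13, adjusted p = 0.115). AURKA (ENSG00000087586), the centrosomal Aurora kinase, had 43.3 and 51.5 CPM against 68.3 and 60.8 CPM (0.45, SE 0.16, adjusted p = 0.169). For PLK4 (ENSG00000142731), which starts centriole duplication, the values were 21.1 and 26.3 CPM against 36.5 and 32.4 CPM (0.54, SE 0.17, adjusted p = 0.136). All 3 were higher in both N_12 libraries than in either DMSO library, and none was called. NEK2, a kinase of centrosome separation, had 82.5 and 89.9 CPM against 83.2 and 72.8 CPM, with overlapping groups (-0.14).

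Of the 9 genes of cyclin B, cyclin A, CDK1 and their regulators, 4 lay above 0 and 5 below, with a median of -0.01. CCNB1 (ENSG00000134057), cyclin B1, had 105 and 112 CPM in DMSO and 137 and 137 CPM in N_12 (0.33, SE 0.13, adjusted p = 0.190). Its partner CDK1 (ENSG00000170312) had 110 and 112 CPM in DMSO and 128 and 93.2 CPM in N_12, so that the N_12 libraries enclosed both DMSO libraries (-0.01, 95% interval -0.40 to 0.39). Of the other mitotic cyclins, CCNA2 was at -0.03 with overlapping groups, and CCNB2 at -0.09 with both N_12 libraries below the DMSO libraries. CDC25B and CDC25A, phosphatases that activate CDKs, were at 0.29 and 0.25 with no overlap between groups, whereas CDC25C was at -0.10.

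CKS2 (ENSG00000123975), a small subunit that binds cyclin-dependent kinases, had the lowest value of all 56 genes. It stood at 232 and 202 CPM in DMSO and at 140 and 142 CPM in N_12, a log2 fold change of -0.63 (SE 0.13, 95% interval -0.94 to -0.31, adjusted p = 0.0590). The groups did not overlap, and DESeq2 called it lower (adjusted p = 0.00166). With the correction for GC content and length its value was -0.37 (adjusted p = 0.166). Its close paralog CKS1B, which also has pseudogene copies, was at 0.12 (95% interval -0.19 to 0.42); the difference between the paralogs was not tested. Per kilobase of transcript CKS2 was also the most abundant member in DMSO, at 354 CPM per kb, ahead of CDC20 (181) and CKS1B (171).

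The chromosomal passenger complex, which corrects faulty attachments of chromosomes, had 4 values between 0.03 and 0.11. Its kinase AURKB (ENSG00000178999) stood at 58.7 and 53.7 CPM in DMSO and 57.3 and 61.3 CPM in N_12 (0.08, 95% interval -0.26 to 0.42), and its scaffold INCENP was at 0.10. BIRC5 (ENSG00000089685), survivin, had 75.5 and 76.5 CPM in DMSO and 92.7 and 63.0 CPM in N_12: the N_12 replicates differed 1.47-fold around a mean that was almost that of DMSO (0.03, SE 0.19). CDCA8, borealin, was at 0.11 with overlapping groups.

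Of the 4 genes of anaphase, 3 were close to 0. CDC20 (ENSG00000117399), the activator of the anaphase-promoting complex, had 341 and 304 CPM in DMSO and 285 and 339 CPM in N_12 (-0.04, 95% interval -0.37 to 0.28). PTTG1, securin, was at -0.06, and ESPL1, the separase that securin inhibits, also at -0.06. UBE2C, the ubiquitin-conjugating enzyme of the complex, lay higher in both N_12 libraries (0.26, adjusted p = 0.343).

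The spindle checkpoint genes were BUB1, BUB1B, BUB3, MAD2L1 and TTK. BUB1 (ENSG00000169679), a checkpoint kinase, had 98.4 CPM in DMSO replicate 1, 148 in DMSO replicate 2, and 154 and 145 CPM in N_12 (0.28, SE 0.20, adjusted p = 0.462). Only DMSO replicate 1 stood apart, and the groups overlapped. BUB1B (ENSG00000156970), its paralog in the checkpoint complex, was also lowest in DMSO replicate 1, with 51.9, 82.5, 90.4 and 97.8 CPM, but its groups did not overlap (0.49, SE 0.22, adjusted p = 0.266). TTK (ENSG00000112742), the MPS1 kinase that starts the checkpoint signal, overlapped at 66.9, 82.5, 86.0 and 71.4 CPM (0.07). MAD2L1, the checkpoint protein that binds CDC20, was lower in both N_12 libraries, at 105 and 91.5 against 86.8 and 64.3 CPM (-0.38, 95% interval -0.79 to 0.04, adjusted p = 0.268), and BUB3 was at 0.23.

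At kinetochores and centromeres the largest log2 fold change of all 56 genes came with the widest interval. CENPF (ENSG00000117724), a large kinetochore protein, had 58.2 CPM in DMSO replicate 1, 167 CPM in DMSO replicate 2, and 168 and 208 CPM in N_12 (0.74, SE 0.64, 95% interval -1.34 to 2.81, adjusted p = 0.587). The DMSO libraries differed 2.87-fold, more than the 1.67-fold between groups, and DMSO replicate 2 was almost level with N_12 replicate 1. CENPE (ENSG00000138778), the kinetochore kinesin, had 31.0 and 67.6 CPM in DMSO and 78.5 and 54.9 CPM in N_12 (0.44, SE 0.46). The 4 subunits of the NDC80 complex, which binds microtubules, did not share a direction: NDC80 was at 0.39, SPC25 at 0.34, SPC24 at -0.20 and NUF2 at -0.29, all with overlapping groups. NUF2 had 40.4 and 47.7 CPM against 44.6 and 27.3 CPM, so that only N_12 replicate 2 was low. SPC24 had 19.9 and 23.7 CPM against 16.5 and 21.5 CPM. CENPA, the centromeric histone, was the steadiest, with 27.0 and 27.1 CPM against 28.5 and 28.3 CPM (0.07, 95% interval -0.27 to 0.41).

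Of the 7 genes of spindle motors and assembly, 6 lay above 0 (median 0.24). ASPM (ENSG00000066279), which focuses spindle poles, had 57.6 and 87.8 CPM in DMSO and 127 and 99.5 CPM in N_12 (0.64, SE 0.23, adjusted p = 0.183). TPX2 (ENSG00000088325), which activates AURKA on the spindle, had 163 and 205 CPM against 250 and 219 CPM (0.35, SE 0.16, adjusted p = 0.241). Both were higher in each N_12 library than in either DMSO library. KIF11 (ENSG00000138160), the kinesin that pushes spindle poles apart, overlapped at 60.2 and 77.1 against 82.5 and 62.0 CPM (0.07, SE 0.19). HMMR, a microtubule-binding hyaluronan receptor, had 73.9 and 78.3 CPM against 84.0 and 53.3 CPM and was the 1 gene of this role below 0 (-0.15). The others, KIF2C, DLGAP5 and NUSAP1, were at 0.14, 0.38 and 0.24.

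The 9 genes of the midzone and cytokinesis had a median of 0.37, and 8 lay above 0. PRC1 (ENSG00000198901), which bundles midzone microtubules, stood at 67.8 and 93.6 CPM in DMSO and at 110 and 125 CPM in N_12 (0.54, SE 0.18, adjusted p = 0.146). KIF23, a kinesin of the centralspindlin complex, was at 0.48 (SE 0.18, adjusted p = 0.175), while its partner RACGAP1 was at -0.12, lower in each N_12 library than in either DMSO library. KIF20B had 23.8, 46.3, 62.8 and 41.1 CPM (0.57, SE 0.40), with the widest interval of this role. ANLN (ENSG00000011426), the anillin of the contractile ring, had 131 and 201 CPM in DMSO, which enclosed the 180 and 173 CPM of N_12 (0.09, SE 0.21). The remaining kinesins KIF4A, KIF14 and KIF20A were at 0.45, 0.37 and 0.17, and ECT2, which activates RhoA for furrowing, at 0.24.

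All 6 genes of chromosome structure lay above 0 (median 0.36), and none had an interval that left out 0. TOP2A (ENSG00000131747), topoisomerase II alpha, had 112 CPM in DMSO replicate 1, 191 in DMSO replicate 2, and 208 and 203 CPM in N_12 (0.44, SE 0.25, adjusted p = 0.375). MKI67 (ENSG00000148773), the Ki-67 proliferation marker that coats mitotic chromosomes, had 177 and 252 CPM in DMSO and 232 and 319 CPM in N_12, with overlapping groups. Among the condensin genes, SMC2 was at 0.44, NCAPG at 0.36, NCAPH at 0.28 and SMC4 at 0.06.

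**Figure D2:**
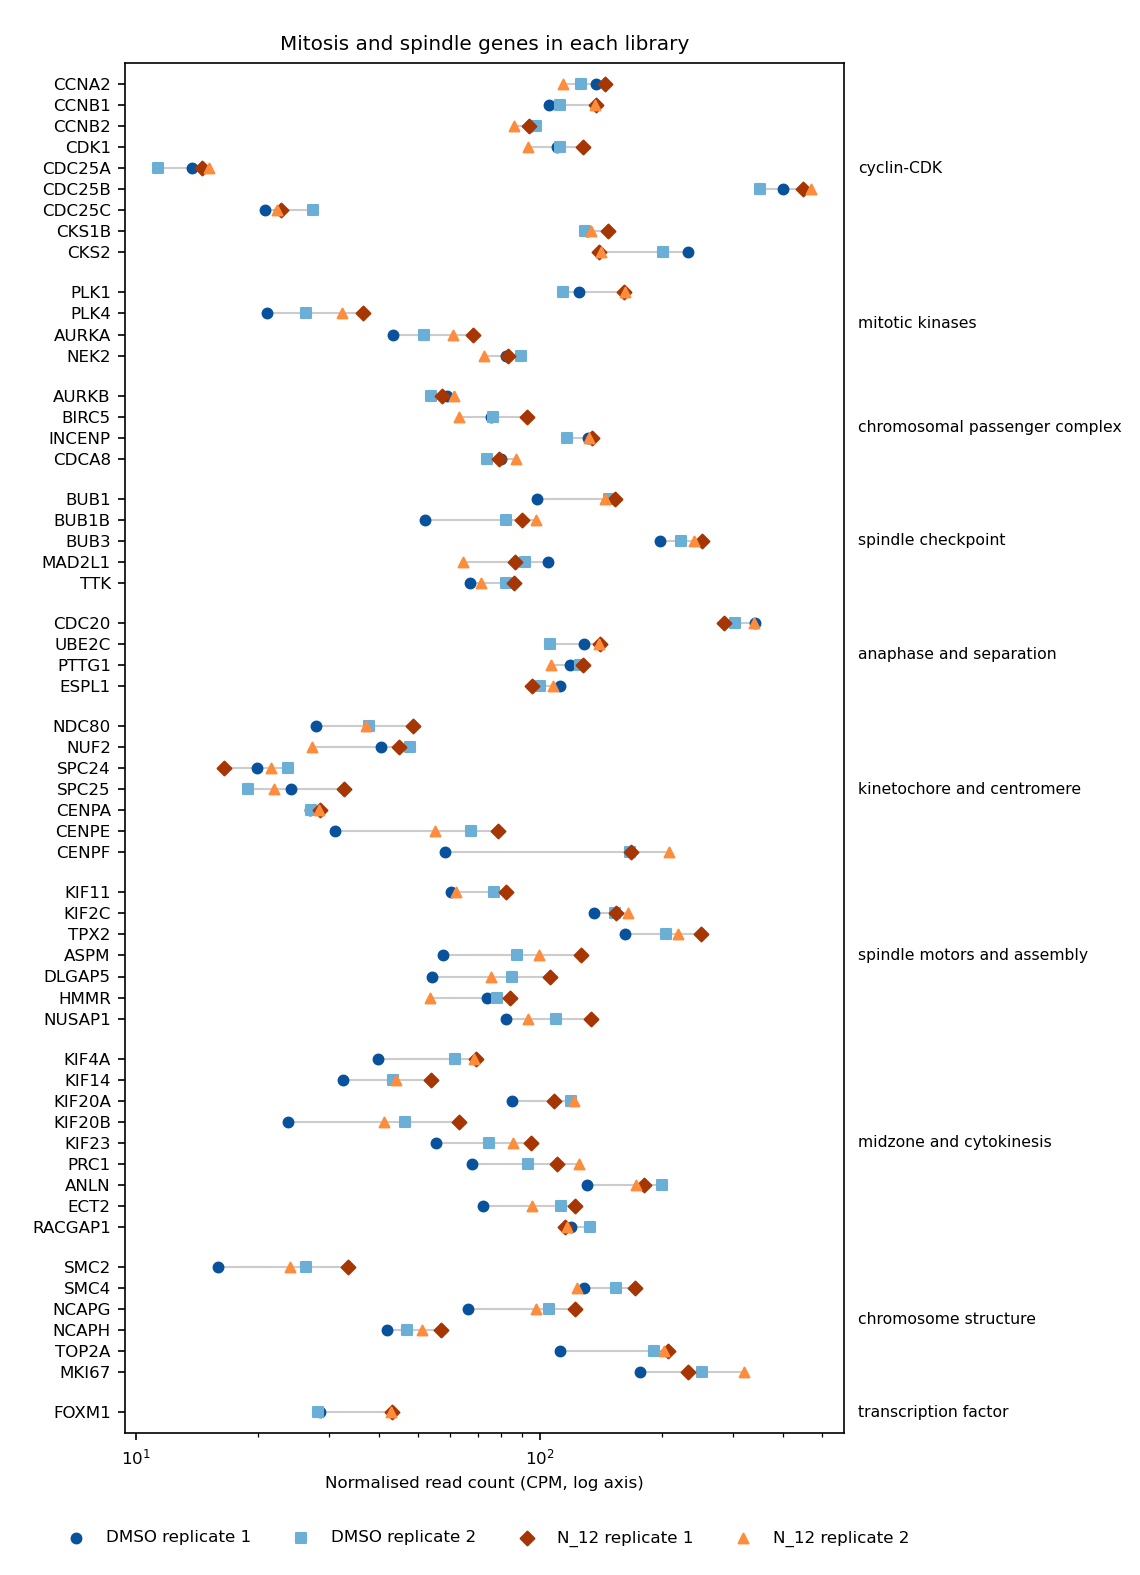
Normalised read count (x axis, CPM, log scale) of each of the 56 genes in each of the 4 libraries, with genes on the y axis grouped by role and grey lines joining the lowest and highest library. DMSO replicate 1 (dark blue circles) is the lowest library for 31 genes, and FOXM1, PLK1, CCNB1 and CKS2 show replicates close together and groups apart.

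The spread within the DMSO group was as large as the difference between groups. DMSO replicate 1 was below DMSO replicate 2 for 41 of 56 members (73.2%, against 44.6% of all genes), and it was the lowest of the 4 libraries for 31 (55.4%, against 25.2%). For 35 members (62.5%, against 40.5% of all genes) the log2 difference between the DMSO libraries was larger than the log2 fold change of N_12 against DMSO. Taking each gene's deviation from its own mean over the 4 libraries, the median over members was -0.19 in DMSO replicate 1, 0.04 in DMSO replicate 2, 0.19 in N_12 replicate 1 and 0.04 in N_12 replicate 2 (log2 CPM). DMSO replicate 2 and N_12 replicate 2 were thus at the same median level. Without DMSO replicate 1 the median log2 fold change of the members was 0.10, without N_12 replicate 1 it was 0.15, and without DMSO replicate 2 it was 0.29. In that last fit CENPF (1.69), CENPE (1.10), ASPM (0.97) and TOP2A (0.87) were called higher, 4 members against 3.11% of all genes. That fit has 1 DMSO library, which is assumed to vary like the N_12 libraries. Without DMSO replicate 1 the same genes were at 0.17, -0.02, 0.37 and 0.10.

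**Figure D3:**
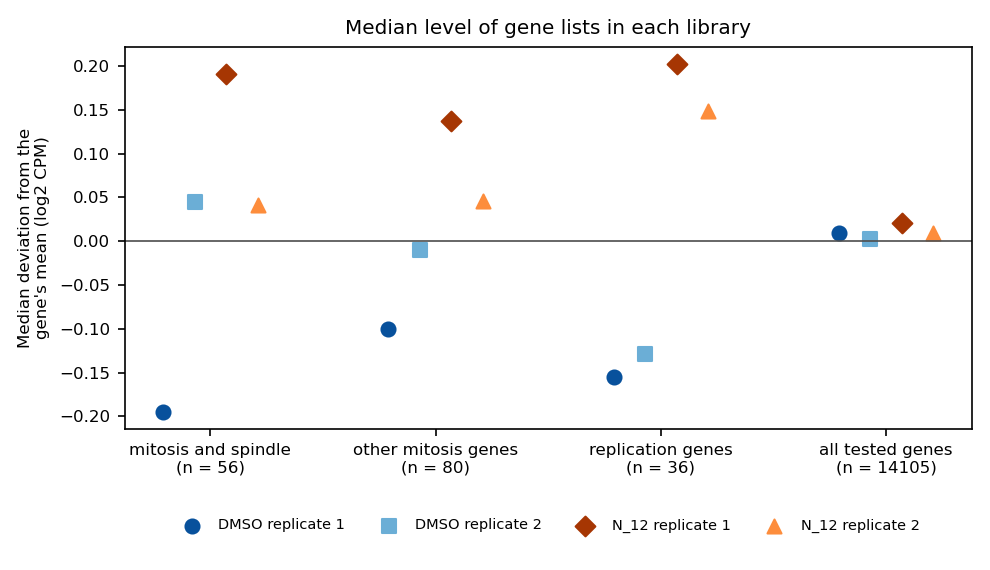
Median deviation from each gene's own mean (y axis, log2 CPM) in each of the 4 libraries (points) for the mitosis and spindle genes, other mitosis genes, replication genes and all tested genes (x axis, with the number of genes). For the mitosis and spindle genes DMSO replicate 2 and N_12 replicate 2 both lie at 0.04, whereas for the replication genes both DMSO libraries lie below both N_12 libraries.

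The difference between the DMSO libraries varied with both the coding length and the GC content of the genes. Across the 56 members, Spearman's rho between coding length and the log2 difference of DMSO replicate 1 from replicate 2 was -0.70, and across all 14068 tested genes with a coding length it was -0.18. With transcript GC content the rho was 0.53 in members and 0.35 in all genes, so that over all genes the relation to GC content was the larger. These are descriptions across genes that share the same 2 libraries. The 23 members with over 2500 coding bases, a limit set after the values were seen, had a median DMSO difference of -0.61 and the 33 shorter ones of -0.04, against -0.05 and 0.05 for all genes on the same sides of that limit. The log2 fold change of N_12 against DMSO had a rho of 0.54 with coding length in members and of 0.24 in all genes, with medians of 0.37 for the longer and 0.11 for the shorter members. ESPL1, with 6360 coding bases, and INCENP, with 2754, were the 2 longer members not lower in DMSO replicate 1, with differences of 0.16 and 0.18. The N_12 libraries also differed by base composition. The difference of N_12 replicate 1 from replicate 2 had a rho of -0.69 with transcript GC content in members and of -0.57 in all genes, and of 0.03 with coding length in members. A fit that corrects each library for GC content and transcript length, by trends over all tested genes, gave a median of 0.24 for members, the same as without the correction. Coding length was not a term of that fit. Whether the fit removed the relation to coding length seen in members was not tested. It called PLK1 (0.45, adjusted p = 0.0489) and FOXM1 higher, against 6.13% of all genes called.

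**Figure D4:**
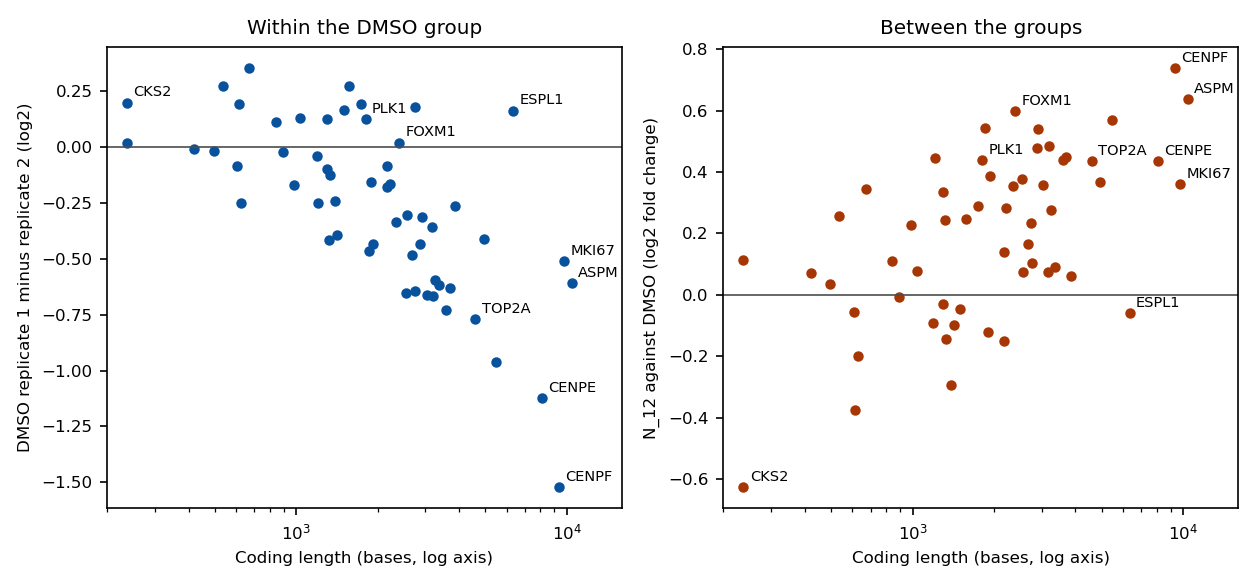
Coding length of the 56 genes (x axes, bases, log scale) against the log2 CPM difference of DMSO replicate 1 from DMSO replicate 2 (left) and against the log2 fold change of N_12 against DMSO (right), with 1 point per gene and 9 genes named. Spearman's rho is -0.70 on the left and 0.54 on the right, and CENPF and CENPE have the lowest values on the left.

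In a list of 80 further genes of the anaphase-promoting complex, kinetochore, condensin, spindle and mitotic kinases, edgeR called 0, with 8 higher and 2 lower at an unadjusted p under 0.05, against 11% and 10.8% of all genes. DESeq2 called 2 higher and 1 lower of these 80, against 9.29% of all genes, and limma-voom called 0. Their median log2 fold change was 0.14, against 0.24 for the mitosis and spindle genes, and 62 of 80 lay above 0. Without DMSO replicate 1 both medians were 0.10, and without N_12 replicate 2 they were 0.24 and 0.26. The difference between the lists was not tested. The highest was SKA3, a subunit of the outer kinetochore SKA complex (0.63, SE 0.18, adjusted p = 0.105), and the lowest was ANAPC11, the RING subunit of the anaphase-promoting complex (-0.56, SE 0.17, adjusted p = 0.119). Neither library of N_12 overlapped the DMSO libraries for these 2 genes.

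Replication genes had a similar median, and their median level differed less between replicate libraries. The 36 listed genes were mostly of origin licensing, the replication fork and nucleotide supply. CCNE1, CCNE2, CHAF1A, CHAF1B, UHRF1 and E2F1 were also on the list. The 36 had a median log2 fold change of 0.22 (range -0.89 to 0.95, against -0.63 to 0.74 for the mitosis and spindle genes), with 28 above 0. Of these 36, edgeR called 3 higher (MCM3 at 0.72, MCM5 at 0.86 and E2F1 at 0.95), against 0.822% of all genes, DESeq2 called 10, against 9.29% called in either direction, and limma-voom called 0. With non-robust dispersions edgeR also called 0 of them, against 0.929% of all genes called in either direction. When any 1 library was left out none of the 3 was called, while the log2 fold changes were 0.63 to 0.79 for MCM3, 0.78 to 0.91 for MCM5 and 0.81 to 1.11 for E2F1. Without either N_12 library edgeR called no gene of the whole table. Their median level was -0.16 and -0.13 in the DMSO libraries and 0.20 and 0.15 in the N_12 libraries, so that the groups did not overlap. Both N_12 libraries exceeded both DMSO libraries for 21 of 36 replication genes (58.3%, against 27.9% of all genes). Without DMSO replicate 1 the replication median was 0.26, where that of the mitosis and spindle genes was 0.10. Whether the 2 lists differ in their response was not tested.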

How the data were processed

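The authors deposited whole-number counts per gene, keyed by human Ensembl identifiers, with no normalization, per the file headers and the values. The aligner, the counter and its use of strand: not given in the sources used here, so reads of overlapping genes cannot be told apart. Per the submitters' processing notes the builds were GRCm38 and mm10, both of mouse, although the identifiers are human. Groups and replicate numbers came from the sample titles. Members and lists were chosen with earlier results of these data known, and every member is named by its role. Values in each library are given for the 6 highest and 6 lowest fold changes and a fixed panel of 18 genes. BUB1B and CENPA were added after their values were seen.

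Symbols were matched to 20148 of 20263 identifiers. In R 4.3.3, edgeR 4.0.16 scaled libraries by TMM (0.98 to 1.02), kept 14105 genes by its expression filter and compared N_12 with DMSO by a robust quasi-likelihood test without a replicate term (two-sided, Benjamini-Hochberg over all genes, threshold 0.05). SE came from the fold change and F statistic, and intervals are single-gene 95% intervals. The procedure was tested on simulated data. Limma 3.58.1 (voom) and DESeq2 1.42.0 were alternatives, with other scalings, filters and dispersions, a replicate term and leaving out each library. Another was a correction for GC content and transcript length, fitted over all tested genes. Coding length, transcript length and GC content are those of the GENCODE release 29 transcript with the longest coding sequence. Log2 CPM levels used a prior count of 1. Replicate counts differed beyond sampling noise (chi-square over its degrees of freedom, 36.5 in DMSO and 57.2 in N_12), so each library counted separately. Among the panel, 6 genes had both motifs wholly within the 100 bases before the start. Of these, the 3 with the smallest and the 2 with the largest p are shown.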

Additional observations from a re-analysis of the deposited data

How the results depend on the processing

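The members called, 0 in the comparison as reported, became 3 with DESeq2, 2 with GC content and length correction, 3 with the replicate block and 0 to 4 when 1 library was left out, and 7 members were called under any of the 14 alternatives. Genes called in all, 317 as reported, were 963 with the replicate block, 131 with limma-voom, 1191 with DESeq2, 131 with non-robust dispersions, 864 with GC content and length correction and 0 to 451 with 1 library left out (0 without either N_12 library, with 1 treated library assumed to vary like the others). How many of all genes were called under any of the 14 alternatives was not counted. The 7 members therefore have no background to be read against, and DESeq2 alone called 9.29% of all genes. The labels do not say what a shared replicate number means. Deviations of same-numbered libraries from their group means had r = -0.09 across genes. That value rests on 1 pair of libraries per group and cannot show whether they were paired. The replicate block called CENPF (0.92), ASPM (0.66) and CKS2 (-0.62), with 6.83% of all genes called, and what it adjusts for is not known. Medians with 1 library left out ranged from 0.10 to 0.29 for members, 0.23 to 0.26 for replication genes and 0.093 to 0.241 for other mitosis genes (lowest without N_12 replicate 1, highest without N_12 replicate 2), and scaling by total counts alone gave 0.27 for replication genes and moved the median of all genes to 0.06. Of the 56 members 38 kept their sign under all 14 alternatives. With total counts alone CCNA2 (0.0169), CDK1 (0.0379) and CDC20 (0.0031) changed sign, without a filter CDK1 (0.0031), and with GC content and length correction CDK1 (0.0933), PTTG1 (0.0788) and SPC24 (0.0084). With 1 library left out, ranges that crossed 0 were CCNA2 -0.23 to 0.13, CDK1 -0.27 to 0.20, CDC25C -0.28 to 0.11, BIRC5 -0.29 to 0.28, TTK -0.0833 to 0.23, CDC20 -0.18 to 0.0585, PTTG1 -0.21 to 0.0622, ESPL1 -0.15 to 0.0255, NUF2 -0.71 to 0.0118, CENPE -0.0177 to 1.10, KIF11 -0.16 to 0.26, HMMR -0.53 to 0.14, NUSAP1 -0.0559 to 0.47, KIF20A -0.0539 to 0.43, ANLN -0.18 to 0.43, ECT2 -0.0494 to 0.59 and SMC4 -0.21 to 0.27. The cause of these changes was not tested.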
